A study of Homo sapiens with 12 samples.

Results

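The integrin and laminin subunit genes are 38 genes among the 60554 gene IDs counted in this study, chosen by symbol: every protein-coding gene named ITGA, ITGB, LAMA, LAMB or LAMC with a subunit number or letter. They comprise 26 integrin genes (18 alpha and 8 beta subunits) and 12 laminin genes (5 alpha, 4 beta and 3 gamma chains). Of these, 37 passed the filter on low counts and are among the 29003 genes tested. ITGB6, at 0.00624 to 0.0645 CPM, did not. The cells were HEK293, a human line of embryonic kidney origin, which the labels give as HEK293T in the cell line field, at passage 10. Each group held 3 libraries of poly(A)-selected RNA: siRNA against RBM17, against U2SURP or against CHERP, which the labels name as SMARTpool reagents, and a non-targeting control siRNA, for which no pool is named. The 3 targeted proteins act in splicing, in association with the U2 snRNP of the spliceosome, and the design asks how gene expression changes when each is depleted. All groups share the cell line, the culture conditions and a transfected siRNA. Separate cultures are not stated for the 3 libraries of a group, and the spread behind each p-value may therefore be technical.

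Laminins are secreted trimers of 1 alpha, 1 beta and 1 gamma chain that polymerise into the sheet of a basement membrane, where nidogens, perlecan, agrin and type IV collagen join them. Integrins are membrane receptors of 1 alpha and 1 beta subunit that bind laminins, collagens or ligands with an RGD sequence outside the cell and connect them through talin and kindlin to actin inside it. Pairing is restricted: many alpha subunits pair with the beta subunit ITGB1 only, and in kidney development laminin receptors and the nephronectin receptor ITGA8 are among the subunits known to be required.

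Promoter windows, from 250 bases before to 50 bases after the annotated start, were taken from RefSeq (GRCh38.p14), which gave one or more for 26 of the 38 genes. They are shown for the members with the largest called decrease in RBM17, U2SURP and CHERP knockdown and the largest called increase in any, among members with a mean of at least 10 CPM in a group and a window in the table. All 4 are on the minus strand and are written 5′ to 3′ in the direction of transcription. Capitals mark GC boxes (GGGCGG on either strand), with overlapping matches counted separately. The CCAAT box was searched as CCAAT on both strands. The TATA box was searched as TATAAA on both strands. The AP-1 element was searched as TGANTCA, which reads the same on both strands, and none of these 3 motifs was in the 4 windows.
LAMB2, chr3:49133001-49133300: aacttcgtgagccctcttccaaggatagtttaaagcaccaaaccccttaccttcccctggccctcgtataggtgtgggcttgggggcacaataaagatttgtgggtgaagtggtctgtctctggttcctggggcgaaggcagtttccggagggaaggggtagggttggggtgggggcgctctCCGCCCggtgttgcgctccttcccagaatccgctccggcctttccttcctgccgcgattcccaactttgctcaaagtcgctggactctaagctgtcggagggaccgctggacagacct
ITGA8, chr10:15719873-15720172: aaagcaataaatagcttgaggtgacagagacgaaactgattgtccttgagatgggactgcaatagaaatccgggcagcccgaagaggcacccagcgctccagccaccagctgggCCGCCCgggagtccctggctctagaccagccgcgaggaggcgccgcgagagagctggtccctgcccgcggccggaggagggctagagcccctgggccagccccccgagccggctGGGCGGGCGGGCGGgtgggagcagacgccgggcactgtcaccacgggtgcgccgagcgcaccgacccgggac
LAMA5, chr20:62367263-62367562: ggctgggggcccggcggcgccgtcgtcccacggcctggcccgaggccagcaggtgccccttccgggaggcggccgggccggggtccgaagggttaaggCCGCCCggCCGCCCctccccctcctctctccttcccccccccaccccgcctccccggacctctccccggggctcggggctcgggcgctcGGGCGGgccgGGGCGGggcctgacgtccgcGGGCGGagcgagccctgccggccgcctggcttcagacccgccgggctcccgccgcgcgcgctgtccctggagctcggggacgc
ITGAE, chr17:3801139-3801438: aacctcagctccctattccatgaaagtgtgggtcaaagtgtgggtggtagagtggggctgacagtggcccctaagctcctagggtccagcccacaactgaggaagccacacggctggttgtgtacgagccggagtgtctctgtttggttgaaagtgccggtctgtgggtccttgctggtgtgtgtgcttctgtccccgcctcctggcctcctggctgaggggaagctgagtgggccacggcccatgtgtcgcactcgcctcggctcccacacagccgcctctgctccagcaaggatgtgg
The LAMB2 window held 1 GC box, that of ITGA8 held 4 and that of LAMA5 held 5, with a content of G and C of 58.7%, 69.3% and 82.7%. The ITGAE window held 0 and was 61.3% G and C. ITGA9 rose more after RBM17 knockdown (log2 0.44 ± 0.070, against 0.35 ± 0.064 for ITGAE) but had no window among those taken. For a gene with several windows the first was shown. No link between windows and changes was tested. A GC box was present in 57.6% of the 33 member windows and in 45.0% of all 35116 windows in the table, a CCAAT box in 18.2% and 34.6%, a TATA box in 6.1% and 11.5%, and an AP-1 element in 9.1% and 7.7%.

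Each siRNA lowered the gene it was aimed at in all 3 libraries of its group. In RBM17 knockdown, RBM17 averaged 26.5 ± 0.523 CPM, against 115 ± 2.73 in control, or 23.0% of it (SD, n = 3 each). In U2SURP knockdown, U2SURP averaged 144 ± 5.65 CPM, against 471 ± 33.3 in control, or 30.5%, and in CHERP knockdown, CHERP averaged 18 ± 0.788 CPM, against 61.3 ± 1.06 in control, or 29.3%. Libraries held 252505520 to 320986785 counts, and TMM scaling factors ran from 0.9398 to 1.044. RBM17 knockdown library 2 (35648 genes with a count) and control library 3 (36859) had the fewest genes detected in their groups. RBM17 knockdown libraries 1 and 3 (37005 and 36486) were also below all U2SURP and CHERP knockdown libraries (37578 to 37984). Control libraries 1 and 2 had 37931 and 38111. TMM factors were 0.9936, 0.9398 and 0.9556 in RBM17 knockdown. The part of this group difference in the RBM17 results was not tested. Library numbers in the sample titles run in a block for each group, so order of handling and group cannot be told apart. Of the 9 markers listed for HEK293 cells, 7 were above 10 CPM in every library, and the other 2 were PAX2 (0.481 to 1.80 CPM) and LHX1 (0.712 to 1.60 CPM).

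Levels are given in CPM, counts per 1000000 counts of the library after TMM scaling, and differences as log2 fold changes ± SE from edgeR's quasi-likelihood fit, called at a Benjamini-Hochberg adjusted p under 0.05 over 29003 genes. In bulk RNA, fewer cells expressing a gene and less RNA per cell cannot be told apart.

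Most members fell in each knockdown. After RBM17 knockdown 26 of 37 tested members fell and 4 rose, against 29.3% called lower and 25.4% called higher among all 29003 genes tested. After U2SURP knockdown 25 fell and 2 rose, where 22.2% of all genes were called lower and 21.1% higher. After CHERP knockdown 24 fell and 1 rose, where 24.6% of all genes were called lower and 22.8% higher. The share of members called lower was 70.3%, 67.6% and 64.9% in these comparisons, which share their control libraries. The median log2 fold change of the members was -0.37 after RBM17, -0.33 after U2SURP and -0.43 after CHERP knockdown, beside medians over all genes of -0.10, -0.02 and -0.00. Among the 12850 protein-coding genes with a mean of at least 1 CPM, 27.0%, 29.6% and 34.2% were called lower in the same order. In that set 46.4%, 34.7% and 33.9% were called higher, and the medians were 0.11, 0.03 and 0.01. Without RBM17 knockdown library 2 and control library 3, both with fewer genes detected, 24, 25 and 22 members were called lower.

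**Figure D1:**
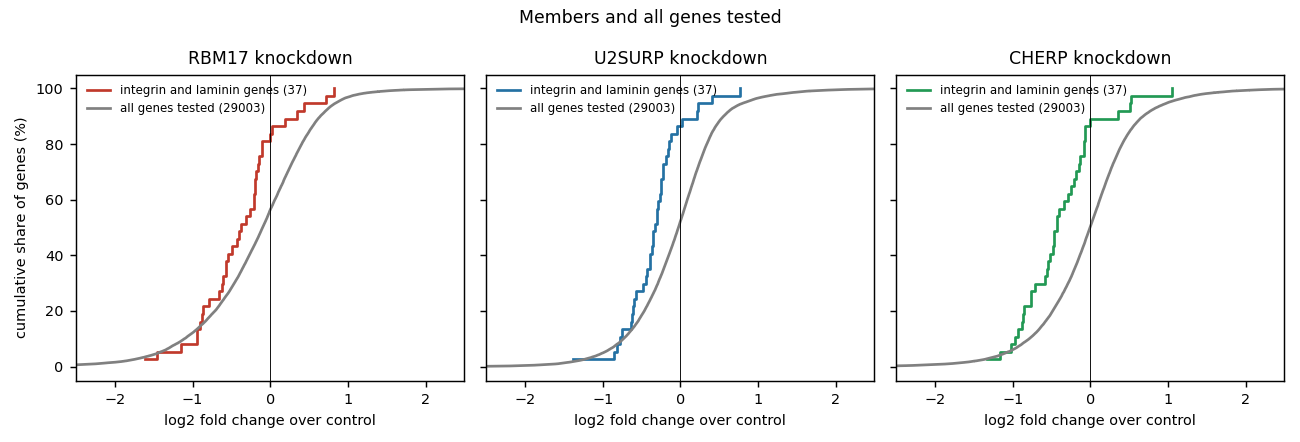
Cumulative share of genes in percent (vertical axis) by log2 fold change over control (horizontal axis), for the 37 tested integrin and laminin genes (coloured steps) and all 29003 genes tested (grey line), in RBM17, U2SURP and CHERP knockdown from left to right. The coloured steps lie left of the grey line over most of their range, with medians of -0.37, -0.33 and -0.43 against -0.10, -0.02 and -0.00 over all genes.

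The laminin chains moved in one direction only among those called: 9 of 12 fell after RBM17, 10 after U2SURP and 11 after CHERP knockdown, and 0 of 12 were called higher in any of these comparisons (0 also at an unadjusted p under 0.05 and by DESeq2's Wald test). Their median log2 fold changes were -0.62, -0.33 and -0.74. In percent, 75.0%, 83.3% and 91.7% of the laminin genes were called lower, beside 29.3%, 22.2% and 24.6% of all genes tested. Among all genes 25.4%, 21.1% and 22.8% were called higher. LAMA4, LAMC1 and LAMC3 did not pass the test after RBM17 knockdown, nor did LAMB3 after U2SURP knockdown.

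Among the 5 laminin alpha chains, which carry the domains that bind receptors, LAMA5 had the lowest fold change after CHERP knockdown of all members of at least 10 CPM in a group. LAMA5 (ENSG00000130702; GRCh38 chromosome 20, 62307955 to 62367312, minus strand), the alpha chain of the mature glomerular basement membrane, had 142, 139 and 136 CPM after RBM17 knockdown, 215, 200.5 and 219 after U2SURP knockdown and 127, 127 and 119.9 after CHERP knockdown, against 278, 251 and 230.1 in control. All knockdown libraries were below all control libraries, with those of U2SURP knockdown closest to control. The log2 fold change was -1.02 ± 0.060 (adjusted p = 2.31e-12, 49.3% of control) for CHERP, -0.86 ± 0.059 (adjusted p = 2.72e-11) for RBM17 and -0.26 ± 0.059 (adjusted p = 8.70e-04) for U2SURP knockdown. The promoter window of LAMA5 printed above was the richest of the 4 shown in G and C and in GC boxes.

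LAMA1, the alpha chain of the first basement membranes of the embryo, had 67.1, 77.4 and 74.8 CPM in RBM17 knockdown libraries, 64.2, 65.8 and 69.0 in U2SURP knockdown libraries and 50.9, 56.8 and 56.2 in CHERP knockdown libraries, against 100.3, 94.8 and 101 in control libraries. The groups did not overlap with control, and CHERP knockdown libraries were the lowest. Its log2 fold changes were -0.43 ± 0.058 for RBM17, -0.57 ± 0.058 for U2SURP and -0.85 ± 0.058 for CHERP knockdown, with adjusted p = 8.42e-07, 3.71e-08 and 3.30e-11.

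LAMA3, the alpha chain of the epithelial laminin that also holds LAMB3, was counted at 124, 129.5 and 128 CPM after RBM17 knockdown, 144, 145 and 153 after U2SURP knockdown and 142, 146 and 145 after CHERP knockdown, against 169.9, 164 and 159 in control. Every knockdown library was below every control library. On the log2 scale LAMA3 changed by -0.37 ± 0.048 for RBM17, -0.16 ± 0.048 for U2SURP and -0.19 ± 0.048 for CHERP knockdown. For U2SURP and CHERP knockdown these were the nearest to 0 among the 5 alpha chains.

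LAMA4, the alpha chain found in vessel and muscle basement membranes, showed 77.8, 76.5 and 71.6 CPM after RBM17 knockdown, 68.2, 61.9 and 64.6 after U2SURP knockdown and 57.8, 50.3 and 45.2 after CHERP knockdown, against 83.9, 80 and 87.3 in control. It fell after U2SURP (log2 -0.37 ± 0.067) and CHERP knockdown (-0.71 ± 0.068, adjusted p = 6.86e-09). For RBM17 knockdown the 3 libraries lay below control, but the difference of -0.15 ± 0.067 missed the threshold (adjusted p = 0.0577). It passed with no filter on low counts (adjusted p = 0.0274) and with protein-coding genes alone (log2 -0.22, adjusted p = 0.00547).

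LAMA2, the alpha chain of muscle laminin, was near 1 CPM in control. It had 0.516, 0.570 and 0.624 CPM after RBM17 knockdown, 0.538, 0.674 and 0.621 after U2SURP knockdown and 0.529, 0.355 and 0.368 after CHERP knockdown, against 1.10, 1.10 and 0.958 in control. Every knockdown library was below every control library. On the log2 scale LAMA2 changed by -0.88 ± 0.17 for RBM17, -0.78 ± 0.16 for U2SURP and -1.34 ± 0.17 for CHERP knockdown.

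LAMB1 and LAMB2 are the beta chains of most laminins, LAMB1 early in development and LAMB2 in the mature glomerulus and the neuromuscular junction. LAMB1 had 114, 118 and 109.8 CPM in RBM17 knockdown libraries, 133, 120.0 and 126 in U2SURP knockdown libraries and 110.2, 103 and 98.1 in CHERP knockdown libraries, against 174, 166 and 186 in control libraries. Its log2 fold changes of -0.62 ± 0.056 for RBM17, -0.47 ± 0.056 for U2SURP and -0.76 ± 0.057 for CHERP knockdown had adjusted p = 1.89e-09, 3.37e-07 and 1.30e-10. No knockdown library reached the lowest control library.

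LAMB2 (ENSG00000172037; GRCh38 chromosome 3, 49121114 to 49133118, minus strand) had 79.3, 67.5 and 70.7 CPM after RBM17 knockdown, 99.9, 83.0 and 90 after U2SURP knockdown and 79.6, 75.5 and 72.7 after CHERP knockdown, against 147, 135 and 135 in control. RBM17 and CHERP knockdown libraries overlapped, U2SURP knockdown libraries lay above them and control libraries above all. LAMB2 had log2 fold changes of -0.94 ± 0.066 for RBM17, -0.61 ± 0.066 for U2SURP and -0.87 ± 0.066 for CHERP knockdown, with adjusted p = 3.98e-11, 8.39e-08 and 1.63e-10. Among members of at least 10 CPM, the RBM17 value was the lowest of that comparison, with ITGA2B equal to it at 2 decimals. The LAMB2 window above held a single GC box.

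The gamma chains were led by LAMC1, the partner of most alpha and beta chains and the member with the highest level. LAMC1 had 596, 673 and 629.9 CPM after RBM17 knockdown, 516, 516 and 512 after U2SURP knockdown and 495, 469.9 and 472 after CHERP knockdown, against 630.0, 605 and 665 in control. RBM17 knockdown and control libraries overlapped (log2 -0.00 ± 0.054, adjusted p = 0.991), whereas the U2SURP and CHERP knockdown libraries were all lower. LAMC1 fell after U2SURP (log2 -0.30 ± 0.054, adjusted p = 8.29e-05) and CHERP knockdown (log2 -0.40 ± 0.054, adjusted p = 1.37e-06).

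LAMC3, a gamma chain of brain and retina laminins, followed the same order. It had 37.0, 37.1 and 38.2 CPM in RBM17 knockdown libraries, 30.2, 32.7 and 32.2 in U2SURP knockdown libraries and 25.3, 24.1 and 24.1 in CHERP knockdown libraries, against 38.3, 34.5 and 37.8 in control libraries. RBM17 knockdown overlapped control (log2 0.02 ± 0.054, not called), and the other groups lay below it. LAMC3 fell after U2SURP (log2 -0.22 ± 0.055) and CHERP knockdown (log2 -0.59 ± 0.055, adjusted p = 4.85e-09).

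**Figure D2:**
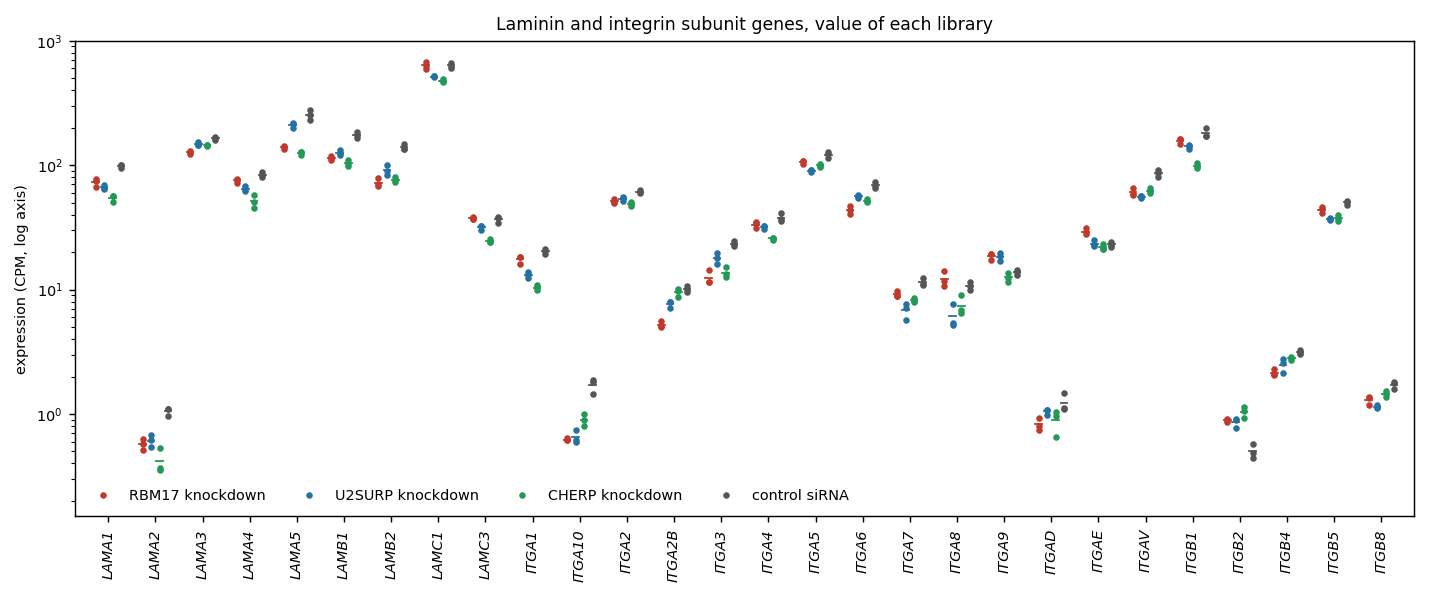
Level of each library in CPM (vertical log axis) for 28 members with a mean of at least 1 CPM in a group. Points are libraries, short bars are means, and colours run RBM17 knockdown, U2SURP knockdown, CHERP knockdown and control from left to right within each gene. LAMC1 stands highest, at 469.9 to 673 CPM, and most genes have their control points above the others, whereas ITGB2 has them below.

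Of the 25 tested integrin genes 17 fell after RBM17, 15 after U2SURP and 13 after CHERP knockdown, and 4, 2 and 1 rose. In percent, 68.0%, 60.0% and 52.0% were called lower, beside 29.3%, 22.2% and 24.6% of all genes tested. Among all genes 25.4%, 21.1% and 22.8% were called higher. ITGA9 and ITGB2 rose after both RBM17 and U2SURP knockdown, ITGAE and ITGB3 after RBM17 knockdown, and ITGB2 after CHERP knockdown. No test compared integrins with laminins.

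ITGB1, the beta subunit shared by most integrins that bind laminin, collagen and fibronectin, had 161, 163 and 147 CPM after RBM17 knockdown, 146, 143 and 136 after U2SURP knockdown and 105, 94.7 and 97.7 after CHERP knockdown, against 171, 173 and 199 in control. CHERP knockdown libraries were the lowest, without overlap, and control library 3 was the highest of all. ITGB1 had log2 fold changes of -0.21 ± 0.060 for RBM17, -0.36 ± 0.060 for U2SURP and -0.87 ± 0.061 for CHERP knockdown, with adjusted p = 0.00542, 3.65e-05 and 4.36e-11. The RBM17 call was lost without control library 3 (log2 -0.132, adjusted p = 0.0522).

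ITGB5, which pairs with ITGAV as a vitronectin receptor, was at 41.2, 45.9 and 44.4 CPM in RBM17 knockdown libraries, 36.2, 36.9 and 37.7 in U2SURP knockdown libraries and 39.6, 35.6 and 36.7 in CHERP knockdown libraries, against 50.4, 48.0 and 51.9 in control libraries. Every knockdown library was below the lowest control library. ITGB5 had log2 fold changes of -0.19 ± 0.055 for RBM17, -0.44 ± 0.055 for U2SURP and -0.43 ± 0.055 for CHERP knockdown. ITGB8, an ITGAV partner that binds latent TGF-beta, had 1.38, 1.35 and 1.18 CPM after RBM17 knockdown, 1.17, 1.13 and 1.12 after U2SURP knockdown and 1.38, 1.45 and 1.52 after CHERP knockdown, against 1.58, 1.81 and 1.77 in control. It fell after RBM17 (log2 -0.40 ± 0.11) and U2SURP knockdown (-0.59 ± 0.11), and the CHERP value of -0.25 ± 0.11 missed the threshold (adjusted p = 0.0784).

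ITGB4, the hemidesmosome subunit that pairs with ITGA6, had 2.11, 2.05 and 2.28 CPM in RBM17 knockdown libraries, 2.74, 2.14 and 2.57 in U2SURP knockdown libraries and 2.72, 2.88 and 2.83 in CHERP knockdown libraries, against 3.27, 3.08 and 3.01 in control libraries. Its log2 fold changes were -0.54 ± 0.10 after RBM17 and -0.33 ± 0.10 after U2SURP knockdown, both called, and -0.15 ± 0.1 after CHERP knockdown, not called. The U2SURP call was lost without U2SURP knockdown library 2 (log2 -0.235, adjusted p = 0.0914).

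ITGB2, the beta subunit of leukocyte integrins, rose in each knockdown. It had 0.867, 0.897 and 0.904 CPM after RBM17 knockdown, 0.894, 0.905 and 0.771 after U2SURP knockdown and 1.14, 1.05 and 0.920 after CHERP knockdown, against 0.571, 0.445 and 0.487 in control. All 9 knockdown libraries were above all control libraries, in a range of 0.445 to 1.14 CPM. It rose by 0.83 ± 0.15 for RBM17, 0.77 ± 0.15 for U2SURP and 1.05 ± 0.15 for CHERP knockdown on the log2 scale, with adjusted p = 4.04e-05, 1.41e-04 and 2.26e-06. The antisense gene ITGB2-AS1 shares 303 exon bases with ITGB2 on the opposite strand and had log2 fold changes of -0.35 (not called), 0.89 and 2.21 in the same order. The strand setting of the counting is not given in the sources used here, so reads of this pair may be mixed. Summed leukocyte markers ran 1.49 to 1.87 CPM in RBM17 knockdown, 1.94 to 2.89 in U2SURP knockdown and 1.80 to 2.57 in CHERP knockdown, against 1.70 to 2.22 in control, and PTPRC, the pan-leukocyte marker, was at 0 to 0.0125 CPM. The sum was carried by CD14 (0.909 to 2.04 CPM), which rose after U2SURP knockdown (log2 0.56 ± 0.19, adjusted p = 0.0217) and was not called after RBM17 (0.11 ± 0.19) or CHERP knockdown (0.27 ± 0.19). CSF1R, at 0.169 to 0.651 CPM, went the other way and fell after RBM17 knockdown (log2 -1.27 ± 0.24, adjusted p = 8.52e-05). It was not called after U2SURP (-0.22 ± 0.23) or CHERP knockdown (-0.48 ± 0.23). Whether leukocytes had any part in the ITGB2 result was not tested.

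The 3 alpha subunits known as laminin receptors, ITGA3, ITGA6 and ITGA7, fell in each knockdown. ITGA6, which pairs with ITGB1 or ITGB4, had 46.6, 43.5 and 40.8 CPM after RBM17 knockdown, 57.7, 57.0 and 54.6 after U2SURP knockdown and 53.0, 50.1 and 51.2 after CHERP knockdown, against 65.9, 68.1 and 73.7 in control. RBM17 knockdown libraries were the lowest and control libraries the highest, with no overlap. ITGA6 had log2 fold changes of -0.67 ± 0.056 for RBM17, -0.29 ± 0.056 for U2SURP and -0.43 ± 0.056 for CHERP knockdown (adjusted p = 6.43e-10, 1.39e-04 and 8.65e-07).

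ITGA3, a laminin receptor subunit of kidney podocytes, had 14.3, 11.4 and 11.4 CPM in RBM17 knockdown libraries, 19.5, 15.9 and 17.9 in U2SURP knockdown libraries and 15.1, 13.3 and 12.6 in CHERP knockdown libraries, against 24.4, 22.2 and 23.2 in control libraries. Control libraries were above all others, and U2SURP knockdown libraries were above those of RBM17 and CHERP knockdown. ITGA3 had log2 fold changes of -0.91 ± 0.088 for RBM17, -0.39 ± 0.087 for U2SURP and -0.77 ± 0.088 for CHERP knockdown, with adjusted p = 1.43e-08, 9.89e-04 and 2.49e-07. ITGA7, the laminin receptor of muscle, had 9.77, 8.91 and 8.86 CPM after RBM17 knockdown, 7.61, 5.71 and 7.13 after U2SURP knockdown and 8.53, 8.04 and 7.93 after CHERP knockdown, against 12.3, 10.9 and 11 in control. Its lowest values were in U2SURP knockdown (log2 -0.75 ± 0.087, adjusted p = 2.75e-07). The change was -0.32 ± 0.086 after RBM17 and -0.48 ± 0.087 after CHERP knockdown.

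Of the 4 collagen-binding alpha subunits, ITGA1, ITGA2 and ITGA10 fell in each knockdown and ITGA11, under 1 CPM, did not pass the test in any. ITGA1 had 18.2, 18.4 and 16.1 CPM after RBM17 knockdown, 13.9, 12.4 and 13.1 after U2SURP knockdown and 10.4, 9.87 and 10.8 after CHERP knockdown, against 19.4, 20.4 and 21.2 in control. Levels stepped down by group, with CHERP knockdown lowest. ITGA1 had log2 fold changes of -0.21 ± 0.066 for RBM17, -0.63 ± 0.066 for U2SURP and -0.97 ± 0.067 for CHERP knockdown, with adjusted p = 0.00976, 6.38e-08 and 3.59e-11. The small RBM17 change was not called by DESeq2's Wald test (log2 -0.154, adjusted p = 0.0525), with DESeq2 size factors (-0.154, 0.0578) or without RBM17 knockdown library 3 (-0.148, 0.0900).

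ITGA2 had 50.5, 53.2 and 49.5 CPM in RBM17 knockdown libraries, 51.4, 55.5 and 54.4 in U2SURP knockdown libraries and 46.6, 48.3 and 50.2 in CHERP knockdown libraries, against 59.7, 60.5 and 63.7 in control libraries. No knockdown group overlapped control. ITGA2 had log2 fold changes of -0.26 ± 0.052 for RBM17, -0.19 ± 0.052 for U2SURP and -0.34 ± 0.052 for CHERP knockdown. ITGA10, a cartilage collagen receptor, was low in all groups. It had 0.637, 0.612 and 0.614 CPM after RBM17 knockdown, 0.741, 0.615 and 0.600 after U2SURP knockdown and 1.00, 0.898 and 0.794 after CHERP knockdown, against 1.86, 1.80 and 1.46 in control. Its fold changes after RBM17 and U2SURP knockdown were the lowest of all members of at least 1 CPM. They were log2 -1.46 ± 0.14 (adjusted p = 6.71e-09) and -1.39 ± 0.14 (adjusted p = 4.07e-08), beside -0.93 ± 0.14 (adjusted p = 5.91e-06) after CHERP knockdown.

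The RGD-binding alpha subunits ITGA5 and ITGAV fell in all 3 comparisons, which share their control. ITGAV, the vitronectin receptor subunit, had 66.0, 59.1 and 57.1 CPM after RBM17 knockdown, 56.9, 56.5 and 54.3 after U2SURP knockdown and 61.6, 59.5 and 65.4 after CHERP knockdown, against 80.3, 86.1 and 90.8 in control. U2SURP knockdown libraries were the lowest and control libraries the highest. ITGAV had log2 fold changes of -0.50 ± 0.059 for RBM17, -0.62 ± 0.059 for U2SURP and -0.46 ± 0.059 for CHERP knockdown, with adjusted p = 1.38e-07, 1.62e-08 and 6.08e-07. ITGA5, the fibronectin receptor subunit, was counted at 108, 108 and 102 CPM after RBM17 knockdown, 91.5, 87.8 and 91.9 after U2SURP knockdown and 103, 98.7 and 96.8 after CHERP knockdown, against 128, 115 and 122 in control. The lowest values were in U2SURP knockdown. On the log2 scale the ITGA5 changes were -0.19 ± 0.051 after RBM17, -0.43 ± 0.051 (adjusted p = 3.51e-07) after U2SURP and -0.29 ± 0.051 after CHERP knockdown.

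ITGA8, the nephronectin receptor subunit required for kidney outgrowth in mice, fell in 2 of the 3 knockdowns. It had 14.2, 11.7 and 10.6 CPM in RBM17 knockdown libraries, 7.63, 5.16 and 5.43 in U2SURP knockdown libraries and 9.08, 6.80 and 6.45 in CHERP knockdown libraries, against 10.7, 9.98 and 11.4 in control libraries. RBM17 knockdown overlapped control, and U2SURP and CHERP knockdown libraries lay below it. ITGA8 fell after U2SURP knockdown (log2 -0.82 ± 0.17, adjusted p = 0.00271), which was the lowest value of that comparison among members of at least 10 CPM. Its window above held 4 GC boxes. ITGA8 also fell after CHERP knockdown (log2 -0.52 ± 0.17, adjusted p = 0.0278). That call was lost without CHERP knockdown library 2 (log2 -0.461, adjusted p = 0.0963) or 3 (-0.461, 0.0727). It was also lost without control library 1 (-0.525, 0.0761) or 3 (-0.473, 0.1), and without control library 3 and RBM17 knockdown library 2 together (-0.473, 0.121). After RBM17 knockdown the value of 0.19 ± 0.17 was not called, but passed when those groups were fitted alone (log2 0.23, adjusted p = 0.0423).

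ITGA2B, the platelet fibrinogen receptor subunit, was expressed at 5.07, 5.02 and 5.58 CPM after RBM17 knockdown, 7.92, 7.13 and 7.91 after U2SURP knockdown and 8.76, 10.1 and 9.67 after CHERP knockdown, against 10.7, 9.85 and 9.53 in control. RBM17 knockdown had the lowest libraries (log2 -0.94 ± 0.078, adjusted p = 4.69e-10), U2SURP knockdown followed (-0.39 ± 0.077, adjusted p = 2.14e-04), and CHERP knockdown overlapped control (-0.08 ± 0.076, not called). The summed level of 4 platelet markers stayed at or below 0.0462 CPM in every library, with GP1BB at 0.

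ITGA4 and ITGA9 form a pair of related subunits that bind VCAM1, fibronectin or tenascin. ITGA4 had 34.8, 34 and 31.1 CPM after RBM17 knockdown, 32.3, 32.4 and 30.8 after U2SURP knockdown and 25.0, 26.2 and 26.1 after CHERP knockdown, against 35.3, 37.1 and 40.9 in control. CHERP knockdown libraries were the lowest (log2 -0.55 ± 0.059, adjusted p = 4.66e-08), and the U2SURP change was -0.25 ± 0.059. The RBM17 value of -0.18 ± 0.059 (adjusted p = 0.0110) lost its call with either DESeq2 alternative (log2 -0.129), with those groups fitted alone (-0.136), without RBM17 knockdown library 3 (-0.135), without control library 3 (-0.123), and without control library 3 and RBM17 knockdown library 2 together (-0.137).

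ITGA9 rose after RBM17 and U2SURP knockdown. It had 17.4, 19.2 and 19.4 CPM in RBM17 knockdown libraries, 16.9, 18.5 and 19.6 in U2SURP knockdown libraries and 11.6, 12.4 and 13.7 in CHERP knockdown libraries, against 14.4, 13.8 and 13.2 in control libraries. All libraries of those knockdowns were above all control libraries, and CHERP knockdown overlapped control. Its log2 fold changes were 0.44 ± 0.070 (adjusted p = 1.08e-05), 0.41 ± 0.070 (adjusted p = 4.03e-05) and -0.13 ± 0.071 (not called), in the order RBM17, U2SURP and CHERP. The last was called lower without CHERP knockdown library 3 (log2 -0.23, adjusted p = 0.0168).

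ITGAE, which pairs with ITGB7 in T cells of epithelia, had 28.0, 31.0 and 28.8 CPM after RBM17 knockdown, 25.2, 22.7 and 22.4 after U2SURP knockdown and 23.4, 21.0 and 21.0 after CHERP knockdown, against 22.9, 21.9 and 24.3 in control. RBM17 knockdown libraries were above all others (log2 0.35 ± 0.064, adjusted p = 6.22e-05), and the other groups overlapped control (0.03 ± 0.064 after U2SURP and -0.08 ± 0.064 after CHERP knockdown). Its window, also printed above, held none of the 4 motifs. ITGAD, a leukocyte subunit near 1 CPM, had 0.749, 0.928 and 0.793 CPM after RBM17 knockdown, 0.990, 1.07 and 1.08 after U2SURP knockdown and 0.656, 1.04 and 0.965 after CHERP knockdown, against 1.09, 1.12 and 1.48 in control. It fell after RBM17 (log2 -0.57 ± 0.16) and CHERP knockdown (-0.46 ± 0.16). The CHERP call was lost without CHERP knockdown library 1 (log2 -0.288, adjusted p = 0.148) and without control library 3 (-0.310, 0.144).

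The 8 tested members under 1 CPM in every group were ITGA11, ITGAL, ITGAM, ITGAX, ITGB3, ITGB7, LAMB3 and LAMB4, and their libraries ran from 0.0385 to 1.13 CPM. LAMB3, the beta chain of that epithelial laminin, fell after RBM17 (log2 -1.15 ± 0.20) and CHERP knockdown (-0.54 ± 0.20). LAMB4 fell in all 3 comparisons (log2 -0.78, -0.85 and -1.17), ITGAM fell (log2 -0.57 ± 0.22) and ITGB3 rose (log2 0.72 ± 0.29) after RBM17 knockdown. Of the 4394 exon bases of ITGB3, 2266 are shared with the gene AC068234.1 on the same strand, so its counts are uncertain. At this level most of these calls hung on single libraries: those of ITGAM, ITGB3 and LAMB4 after RBM17 knockdown, LAMB4 after U2SURP knockdown and LAMB3 after CHERP knockdown were each lost when 1 of several libraries was left out. ITGB7, a leukocyte beta subunit, fell after RBM17 knockdown (log2 -1.62 ± 0.32), with 0.0723, 0.0385 and 0.136 CPM there and 0.301, 0.240 and 0.223 in control. Of its 4481 exon bases 1886 are shared with ZNF740 on the opposite strand, which was counted at 78.1 to 105 CPM, so its counts are uncertain. ITGAX was called higher after CHERP knockdown when CHERP knockdown library 3 (log2 0.67) or control library 1 (0.72) was left out.

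**Figure D3:**
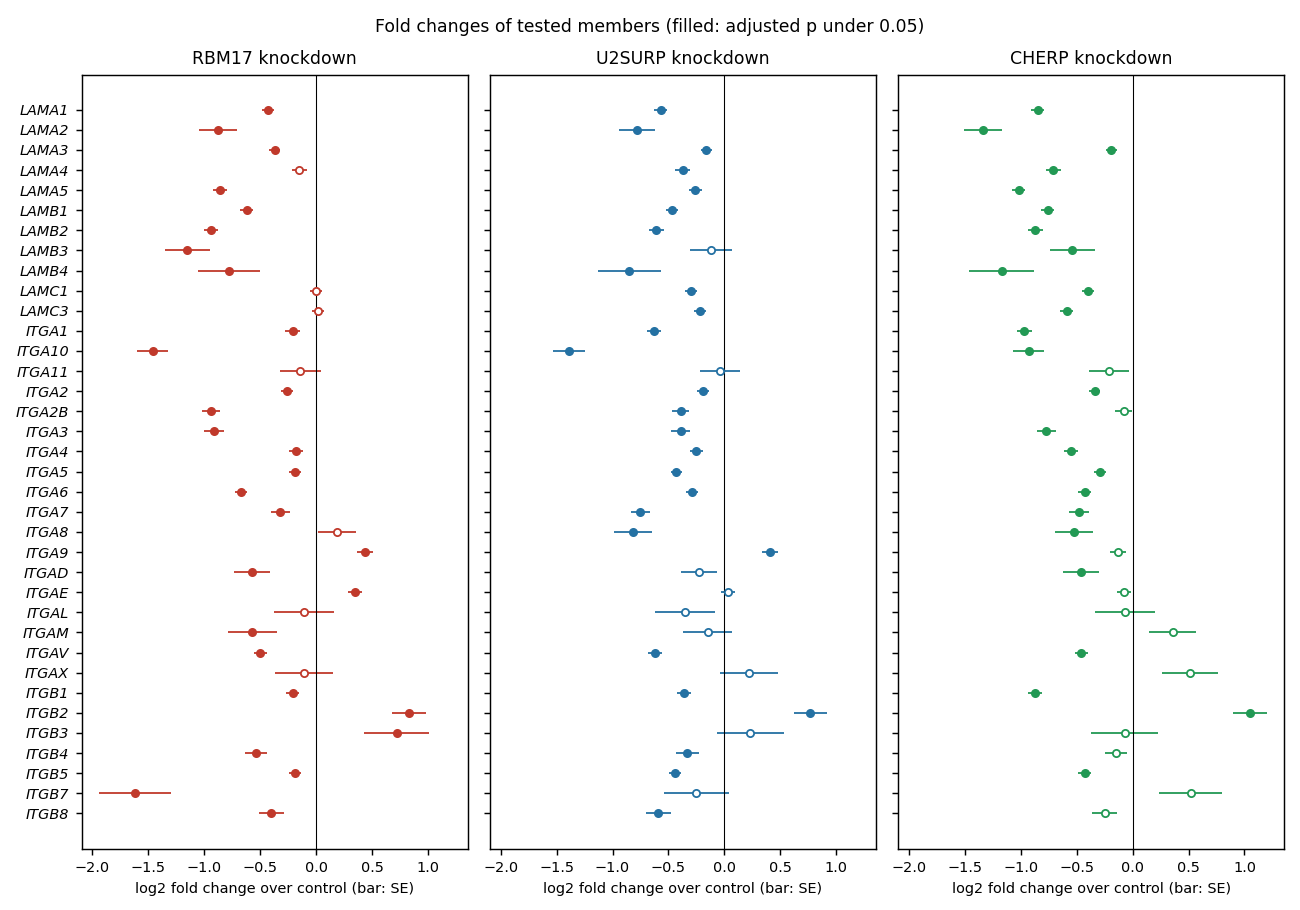
Log2 fold change over control (horizontal axis, bars are SE) of 36 of the 37 tested members, for RBM17, U2SURP and CHERP knockdown from left to right. Filled points had an adjusted p under 0.05. No laminin gene drawn has a filled point right of 0; ITGB2 has one in each panel, at 0.83, 0.77 and 1.05.

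Levels per kilobase of exon allow subunits to be set against each other. Summed over the laminin alpha chains, they were 29.5 ± 0.46, 34.7 ± 1.1 and 26.5 ± 0.63 CPM per kb after RBM17, U2SURP and CHERP knockdown, against 42.5 ± 2.0 in control. That was 69.6% of control after RBM17 knockdown, 81.6% after U2SURP knockdown and 62.3% after CHERP knockdown. Laminin beta chains came to 58.6% of control after RBM17 knockdown, 68.9% after U2SURP knockdown and 56.9% after CHERP knockdown. Integrin beta subunits came to 86.7% of control after RBM17 knockdown, 77.4% after U2SURP knockdown and 59.6% after CHERP knockdown. In these sums all libraries of each knockdown were below all control libraries (exact permutation test, two-sided, p = 0.1, the smallest that 3 against 3 libraries allow). The sum of the laminin gamma chains was 99.9% of control after RBM17 knockdown, 81.5% after U2SURP knockdown and 75.2% after CHERP knockdown (exact permutation p = 0.900 for RBM17 and 0.1 for the others). Integrin alpha subunits summed to 81.4% of control after RBM17 knockdown, 78.5% after U2SURP knockdown and 77.0% after CHERP knockdown (exact permutation p = 0.1 for each).

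In control cells LAMC1 had 75.4 ± 3.61 CPM per kb (SD, n = 3), above the sum of the 4 beta chains (42.1 ± 1.5) and of the 5 alpha chains (42.5 ± 2.0). LAMA3 had 11.2 ± 0.354 CPM per kb in control, while its partner in the epithelial laminin, LAMB3, had 0.201 ± 0.0367. ITGB1 had 30.2 ± 2.6 CPM per kb, less than the 18 alpha subunits together (64.0 ± 2.0).

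The makeup of each class was described by the share of a subunit in the summed level per kb (mean ± SD, n = 3). Shares are relative, so a share can rise while the level of its gene falls. LAMA3 below is such a case, as its level was called lower in each knockdown. The LAMA5 share of the laminin alpha chains was 32.9 ± 0.85% after RBM17 knockdown, 42.6 ± 0.62% after U2SURP knockdown and 33.0 ± 0.31% after CHERP knockdown, against 41.6 ± 2.1% in control. Its share was lower than control in RBM17 and CHERP knockdown without overlap (exact permutation p = 0.1 for each) and overlapped control in U2SURP knockdown (exact permutation p = 0.700). The share of LAMA3 was 29.3 ± 0.54% after RBM17 knockdown, 29 ± 0.67% after U2SURP knockdown and 37.2 ± 1.1% after CHERP knockdown, against 26.4 ± 0.49% in control. It was above control in every knockdown without overlap (exact permutation p = 0.1 for each). LAMA4 took 22.0 ± 0.83% after RBM17 knockdown, 16.2 ± 0.66% after U2SURP knockdown and 16.7 ± 1.8% after CHERP knockdown, against 17.1 ± 1.2% in control. Its share was above control after RBM17 knockdown (exact permutation p = 0.1) and overlapped it elsewhere.

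Within the integrin beta class, ITGB1 held 77.9 ± 1.4% after RBM17 knockdown, 78.6 ± 0.89% after U2SURP knockdown and 71.5 ± 0.15% after CHERP knockdown, against 77.9 ± 1.1% in control. Only CHERP knockdown libraries stood apart from control (exact permutation p = 0.1; 0.900 and 0.5 for RBM17 and U2SURP knockdown). There the share of ITGB5 was 25.1 ± 0.13%, against 20.1 ± 0.93% in control, while its level fell (log2 -0.43 ± 0.055). In the integrin alpha class ITGA6 made up 12.8 ± 0.39% after RBM17 knockdown, against 16.6 ± 0.60% in control (exact permutation p = 0.1). ITGAE made up 8.45 ± 0.55% after RBM17 knockdown, 7 ± 0.34% after U2SURP knockdown and 6.65 ± 0.34% after CHERP knockdown, against 5.40 ± 0.12% in control. The level of ITGAE was called higher after RBM17 knockdown only. LAMC1 held 93.3% to 94.1% of the gamma level on average in all 4 groups. With the longest transcript as the length in place of all exons, the RBM17 difference of LAMA3 moved to 2.17 points, against 2.87, and that of ITGAE to 3.74, against 3.05.

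**Figure D4:**
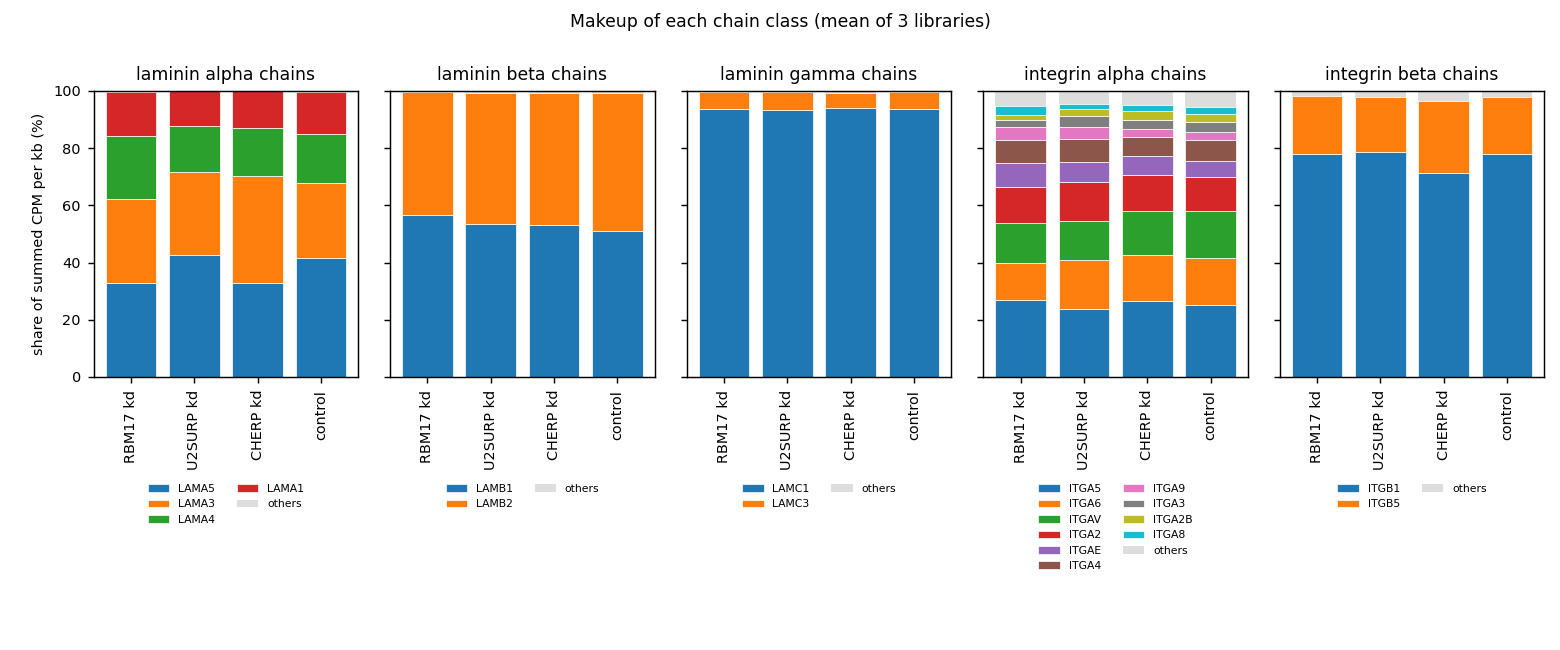
Mean share of each subunit in the summed CPM per kb of its class, in percent (vertical axis), for laminin alpha, beta and gamma chains and integrin alpha and beta subunits. Bars run RBM17 knockdown, U2SURP knockdown, CHERP knockdown and control. LAMA5 (blue) is shorter after RBM17 and CHERP knockdown, at 32.9% and 33.0%, than in control, at 41.6%. Subunits under 3% in every group are summed as others.

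Direct comparisons set knockdown libraries against each other. RBM17 knockdown against U2SURP knockdown gave 10 members higher and 10 lower of 37, beside 23.0% higher and 21.5% lower among all genes. LAMA5 had the smallest adjusted p of these, with 142, 139 and 136 CPM in RBM17 knockdown and 215, 200.5 and 219 in U2SURP knockdown (log2 -0.60 ± 0.059, adjusted p = 1.58e-08). ITGA2B (log2 -0.55 ± 0.078), ITGA6 (-0.37 ± 0.056) and ITGA3 (-0.52 ± 0.088) were likewise lower, and ITGA8 (1.00 ± 0.17), ITGA1 (0.42 ± 0.066) and LAMC1 (0.30 ± 0.054) higher after RBM17 than after U2SURP knockdown.

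RBM17 knockdown against CHERP knockdown gave 15 higher and 10 lower, beside 26.1% and 25.5% of all genes. ITGA1 (0.77 ± 0.067, adjusted p = 1.17e-09), LAMC3 (0.61 ± 0.055) and ITGB1 (0.67 ± 0.060, adjusted p = 2.28e-09) were higher after RBM17 than after CHERP knockdown, and ITGA2B (-0.86 ± 0.078, adjusted p = 1.92e-09) was lower. Without RBM17 knockdown library 2 and control library 3, the counts were 12 higher and 8 lower.

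U2SURP knockdown against CHERP knockdown gave 13 higher and 6 lower, beside 15% higher and 12.9% lower among all genes. Of the 12 laminin genes 7 were higher after U2SURP than after CHERP knockdown and 0 were lower (1 at an unadjusted p under 0.05 and 0 by DESeq2's Wald test), led by LAMA5 (log2 0.76 ± 0.059, adjusted p = 1.31e-09) and LAMC3 (0.37 ± 0.055). ITGB1 (0.52 ± 0.060, adjusted p = 6.30e-07) and ITGA9 (0.55 ± 0.070) were the integrin genes with the smallest adjusted p. Without 1 U2SURP or CHERP knockdown library, 1 to 3 of the 6 lower calls were kept. Of these 6, ITGA2B (-0.31 ± 0.077) kept its call in every setting tried, and ITGA5, ITGA7, ITGA10, ITGB7 and ITGB8 each lost theirs in at least 3.

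**Figure D5:**
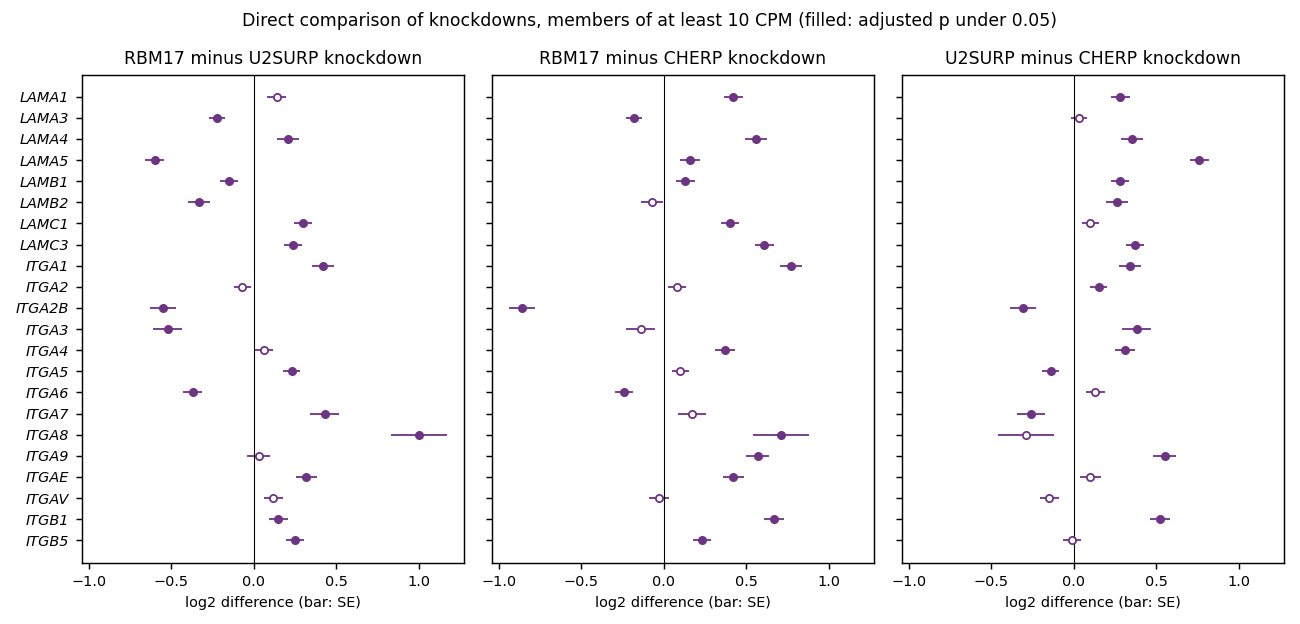
Log2 difference between knockdowns (horizontal axis, bars are SE) for the 22 members of at least 10 CPM: RBM17 minus U2SURP, RBM17 minus CHERP and U2SURP minus CHERP from left to right. Filled points had an adjusted p under 0.05. LAMA5 stands at -0.60 in the left panel and 0.76 in the right one, and ITGA8 at 1.00 in the left.

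Genes that work beside the members were taken from 5 lists. All 13 basement membrane partners of laminin were tested: 12 fell after RBM17, 12 after U2SURP and 13 after CHERP knockdown, and 0 were called higher (0 also at an unadjusted p under 0.05 and by DESeq2's Wald test). The shares called lower were 92.3%, 92.3% and 100%, beside 29.3%, 22.2% and 24.6% of all genes tested. Their medians were -0.69, -0.59 and -0.92, beside -0.10, -0.02 and -0.00 over all genes. COL4A2, a type IV collagen chain, had 116, 126 and 126 CPM after RBM17 knockdown, 152, 150.3 and 162 after U2SURP knockdown and 87.9, 95.4 and 93.7 after CHERP knockdown, against 257, 233 and 241 in control. Its log2 fold changes were -0.99 ± 0.055, -0.66 ± 0.054 and -1.40 ± 0.055, in the order RBM17, U2SURP and CHERP. COL18A1, the source of endostatin, had -0.82, -0.95 and -1.54 in that order. COL4A4 had -1.18, -0.20 and -0.77, and the nidogen NID2, 30% of whose exon bases are shared with other genes, had -0.29, -0.76 and -0.92. All of these were called.

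Soluble and matrix ligands of integrins (15 genes, 14 tested) fell in 10 cases after RBM17, 9 after U2SURP and 12 after CHERP knockdown, which is 71.4%, 64.3% and 85.7%, beside the same 29.3%, 22.2% and 24.6% of all genes. Their medians were -0.43, -0.61 and -0.59. They rose in 1, 0 and 0 cases, and the counts of 0 held at an unadjusted p under 0.05 and by DESeq2's Wald test. MFGE8, a ligand of ITGAV integrins, had log2 fold changes of -1.15, -0.77 and -1.32 in the order RBM17, U2SURP and CHERP. The tenascin TNC, a ligand of ITGA9, had -0.92, -1.02 and -2.04, and fibronectin FN1 had -0.41, -0.83 and -0.61, all called. CTGF, a matricellular protein, rose after RBM17 knockdown (log2 0.80 ± 0.10). By DESeq2's Wald test or with its size factors 3 ligands were called higher after RBM17 knockdown, and 2 with those groups fitted alone or without RBM17 knockdown library 3.

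Of the 16 laminin receptors outside the integrins and the enzymes that glycosylate dystroglycan, 8 fell after RBM17, 12 after U2SURP and 14 after CHERP knockdown, and 2, 1 and 2 rose. The shares called lower were 50%, 75.0% and 87.5%, beside 29.3%, 22.2% and 24.6% of all genes tested. The medians were -0.10, -0.38 and -0.52. Dystroglycan DAG1 fell after CHERP knockdown (log2 -0.85 ± 0.059) and the glycosyltransferase B4GAT1 after U2SURP knockdown (log2 -1.21 ± 0.064). The glycosyltransferase subunit POMT1 had -0.54, -0.58 and -0.66 in the order RBM17, U2SURP and CHERP, all called. Dystrophin DMD rose in each comparison (log2 0.37, 0.21 and 0.15), SDC1 after RBM17 knockdown (0.26 ± 0.056) and POMK after CHERP knockdown (0.36 ± 0.068). DMD was not called after CHERP knockdown when CHERP knockdown library 2 or 3 or control library 1 or 2 was left out, which leaves 1 gene called higher.

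The 37 focal adhesion genes, which act on the inner side of the membrane, moved in both directions: 19 rose and 8 fell after RBM17, 16 rose and 9 fell after U2SURP and 16 rose and 6 fell after CHERP knockdown, of 36 tested. That is 52.8%, 44.4% and 44.4% higher and 22.2%, 25.0% and 16.7% lower. Among protein-coding genes with a mean of at least 1 CPM the shares were 46.4%, 34.7% and 33.9% higher and 27.0%, 29.6% and 34.2% lower. The RBM17 shares were near those of that set. Among all genes tested, which the other lists are set beside, 25.4%, 21.1% and 22.8% were called higher. In that larger set 29.3%, 22.2% and 24.6% were called lower. The list's medians were 0.25, 0.10 and 0.10. The kindlin FERMT2, an integrin activator, had 98.0, 101 and 101 CPM after RBM17 knockdown, 82.8, 87.2 and 82.6 after U2SURP knockdown and 86, 90.8 and 90.5 after CHERP knockdown, against 60.5, 58.8 and 67.8 in control. It rose in each, with log2 fold changes of 0.68, 0.43 and 0.51. After RBM17 knockdown RSU1 rose (log2 0.70 ± 0.056) and FERMT3, the kindlin of blood cells, fell (log2 -1.42 ± 0.13). Filamin FLNA fell after U2SURP (log2 -0.48 ± 0.051) and CHERP knockdown (-1.10 ± 0.051) and rose after RBM17 knockdown (0.32 ± 0.050). Vinculin VCL fell after U2SURP (log2 -0.44 ± 0.050) and CHERP knockdown (-0.78 ± 0.050). PARVG rose in those groups (log2 2.58 ± 0.17 and 2.54 ± 0.17), with 0.368 CPM in control, but 38.4% of its exon bases are shared with other genes. ILK had 0.551 CPM after RBM17 knockdown, against 1.22 in control (log2 -1.14 ± 0.14), but 78.5% of its exon bases are shared with other genes, and its counts are uncertain. With protein-coding genes alone, 14 focal adhesion genes were called lower after RBM17 knockdown.

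Most of the markers of other cell types were under 1 CPM in every library, and COL1A1 and MYH3 were the highest. Summed fibroblast markers ran 14.7 to 15.8 CPM in RBM17 knockdown, 11.5 to 15.4 in U2SURP knockdown and 10.8 to 13.9 in CHERP knockdown, against 18.9 to 23.1 in control. Nearly all of this was COL1A1 (9.92 to 21.5 CPM), 5 of 7 markers were under 1 CPM in every library, and 2, 2 and 4 of the 6 tested fell. That is 33.3%, 33.3% and 66.7%, beside 29.3%, 22.2% and 24.6% of all genes tested. The RBM17 share was near that of all genes. Epithelial markers summed to 7.66 to 8.55 CPM in RBM17 knockdown, 5.13 to 5.20 in U2SURP knockdown and 5.33 to 5.67 in CHERP knockdown, against 8.51 to 9.79 in control, and KRT5 stayed at or below 0.0268 CPM. Most of this sum was CDH1. It fell after U2SURP (log2 -0.87 ± 0.081) and CHERP knockdown (-0.98 ± 0.081) but not after RBM17 knockdown (0.01 ± 0.079). EPCAM fell after RBM17 (-0.51 ± 0.13) and U2SURP knockdown (-0.66 ± 0.13). The keratins KRT8 and KRT18, listed as HEK293 markers, were not in this sum. KRT8 rose after RBM17 (0.76 ± 0.059) and U2SURP knockdown (0.59 ± 0.059), and KRT18 after U2SURP knockdown (0.29 ± 0.055). After CHERP knockdown KRT8 had 49.2, 56.4 and 54.9 CPM, against 37.0, 34.8 and 37.6 in control. KRT18 had 52.7, 55.2 and 56.5 CPM there, against 40.2, 38.2 and 43.5 in control. For both keratins all CHERP knockdown libraries were above all control libraries. Endothelial markers came to 1.05 to 1.22 CPM in RBM17 knockdown, 0.265 to 0.385 in U2SURP knockdown and 0.344 to 0.397 in CHERP knockdown, against 0.570 to 0.649 in control. The higher RBM17 sum was KDR, a VEGF receptor, which rose there (log2 1.74 ± 0.21) and fell after U2SURP (-1.12 ± 0.24) and CHERP knockdown (-0.79 ± 0.23), while VWF fell after RBM17 knockdown (-1.12 ± 0.47) and CDH5 was not tested. Muscle markers came to 36.4 to 40.6 CPM in RBM17 knockdown, 50.2 to 54.9 in U2SURP knockdown and 46.8 to 50.3 in CHERP knockdown, against 42.2 to 44.7 in control, nearly all of it MYH3 (34.7 to 53.1 CPM). Muscle markers moved both ways. ACTA1 fell in each knockdown (log2 -1.42, -0.88 and -0.69) and DES, at 0.0244 to 0.334 CPM, rose in each (1.82, 1.94 and 1.67). MYH3 rose after U2SURP knockdown (0.35 ± 0.057) and was not called after RBM17 knockdown (-0.13 ± 0.057). Its mean was 46.8 CPM after CHERP knockdown, against 40.2 in control. Any part of these other cell types in the decrease of the members was not tested.

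Members also share features of structure that the choice by name did not use. Their genes spanned a median of 79222 bases, against 31609 for the 16291 tested protein-coding genes, and 31 of 38 were above that median. The largest number of exons in a transcript was a median of 30, against 9, and 38 of 38 members were above the median of tested genes. These genes were not compared with others of like length and exon number.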

How the data were processed

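For 12 libraries, made with a stranded poly(A) mRNA kit per the labels' protocols, the authors deposited whole-number read counts by Ensembl gene ID. HISAT2 2.0.5, SAMtools, HTSeq and the build GRCh38 are named per the submitters' processing notes, without roles. No source used here gives the annotation release or how strand was treated in counting. Without strand, reads of overlapping genes on opposite strands may be mixed: 15 members share exon bases with another tested gene, at most 7.59% of their exon bases except for ITGB7. With genes that were not tested, ITGB3 shares 51.6% (same strand) and LAMA1 10.3% (opposite strand). Symbols, coordinates and exon lengths came from GENCODE 29 (GRCh38), which named 56996 of the 60554 gene IDs; the others kept their ID.

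Groups came from the sample titles. The members and the lists of partners and markers were chosen with earlier results of these data known. Counts were filtered with filterByExpr (minimum count 10), TMM-scaled, and modelled by robust quasi-likelihood in edgeR 4.0.16 under R 4.3.3, with the 4 groups in a single fit. The p-values were adjusted by Benjamini-Hochberg over 29003 genes. The biological coefficient of variation common to all genes was 8.66%. Each SE was derived from the fold change and its F statistic (absolute log2 value over the root of F). CPM per kb divides CPM by the union of exons in kilobases; shares and sums were compared by exact permutation tests over libraries, two-sided.

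Members with a mean of at least 1 CPM and a call in any knockdown are given with all libraries, up to 8 per knockdown with full statistics by smallest adjusted p; from each partner list up to 2 called genes per direction and knockdown are named. A gene named for 1 knockdown may be given in all 3; 1 member and 1 partner gene that the rule names are not reported here by themselves. Tested on counts simulated for the RBM17 comparison with control (28368 genes, 200 changed), the fit recovered 60.3% of the genes given a change of 0.5, 86.4% of those given 1 and 98.5% of those given 2 on the log2 scale, and 8 unchanged genes were called. Every replicate pair differed by more than sampling noise (chi-square per gene, over all gene IDs above a small minimum count in the pair, 10.8 to 46.6). Alternatives were DESeq2 1.42.0 (size factors, and its Wald test), keeping all genes in the fit, fitting just the groups compared, protein-coding genes alone, the longest transcript as the length, and leaving out each library; leaving out RBM17 knockdown library 2 and control library 3 together was added after seeing the data. Figures were drawn with matplotlib 3.10.9.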

Additional observations from a re-analysis of the deposited data

How the results depend on the processing

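No called member changed direction in any alternative. The number of members called lower ran from 22 to 27 for RBM17 (26 as reported), 24 to 26 for U2SURP (25) and 22 to 24 for CHERP knockdown (24) over the alternatives run. The number called higher after CHERP knockdown was 1 to 2 when a library was left out (1 as reported; 2 without CHERP knockdown library 3 or control library 1, where ITGAX was added). The number called lower in U2SURP against CHERP knockdown was 1 to 5 when a library was left out (6 as reported; 2, 2 and 3 without CHERP knockdown library 1, 2 and 3, and 1 and 2 without U2SURP knockdown library 2 and 3). The 5 without U2SURP knockdown library 1 were 3 of the 6 and 2 others. The cause was not tested.

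Values near 0 that were not called changed sign. LAMC1 after RBM17 knockdown had 0.054 by DESeq2's Wald test and with its size factors, 0.000 with no filter and 0.046 with those groups alone (-0.001 as reported), and ran from -0.047 to 0.041 when a library was left out. LAMC3 after RBM17 knockdown (0.022) had -0.047 with protein-coding genes alone and ran from -0.024 to 0.052 when a library was left out, the lowest without control library 2. ITGAE after U2SURP knockdown (0.026) ran from -0.046 to 0.067, below 0 without U2SURP knockdown library 1 or control library 2 (-0.010).

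No paired analysis was possible because the labels give the libraries no replicate numbers; equally numbered libraries in accession order had deviations from their group means that correlated between -0.0502 and 0.0648. At 252505520 to 320986785 counts per library, depth limits mainly the 9 members under 1 CPM. The simulation recovered 60.3% of changes of 0.5 log2 units, so decreases of that size can be missed. It changed 200 of 28368 genes, drawn over low and high levels, far fewer than were called in the data. The 60.3% is therefore not the share for members at a given level, which was not simulated. With 3 libraries per group, exact tests stay at p = 0.1 or above.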

Other observations

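Netrins, guidance proteins whose N-terminal domains resemble those of laminins, were listed as relatives of the laminin chains. Of 6 netrin genes, 3 fell and 1 rose after RBM17 knockdown, 2 fell and 1 rose after U2SURP knockdown, and 4 fell and 0 rose after CHERP knockdown (edgeR's quasi-likelihood test; 0 also at an unadjusted p under 0.05 and by DESeq2's Wald test). The shares called lower were 50%, 33.3% and 66.7%, beside 29.3%, 22.2% and 24.6% of all genes tested, and those called higher 16.7%, 16.7% and 0%, beside 25.4%, 21.1% and 22.8%. With 6 genes, the U2SURP shares were near those of all genes. Their medians were -0.11, 0.09 and -0.66. NTN1, the netrin with the highest level, had 43.7, 47.1 and 44.3 CPM after RBM17 knockdown, 42.8, 41.5 and 42.8 after U2SURP knockdown and 36.9, 34.2 and 34.1 after CHERP knockdown, against 58.9, 54.3 and 60.2 in control. Every knockdown library of NTN1 was below every control library, with log2 fold changes of -0.36 ± 0.054, -0.45 ± 0.054 and -0.72 ± 0.054. NTN4, a netrin that binds laminin gamma chains, had -0.48, -0.57 and -0.61, all called. NTNG2 fell after CHERP knockdown (log2 -1.06 ± 0.10). NTN5 rose by 0.68 ± 0.15 after U2SURP knockdown and fell after RBM17 knockdown (-0.72 ± 0.15). NTNG1, under 1 CPM, rose by 0.74 ± 0.21 after RBM17 knockdown. After CHERP knockdown NTNG1 averaged 0.185 ± 0.0375 CPM, against 0.350 ± 0.0686 in control (SD). After RBM17 knockdown 2 netrins were called higher by DESeq2's Wald test, with its size factors or with those groups fitted alone, and after CHERP knockdown 1 was called higher without RBM17 knockdown library 2 and control library 3.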
